A study of Mus musculus with 2 samples.

Results

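Complement is a set of proteins that tag and remove targets. In its classical pathway C1q, built from the products of C1qa, C1qb and C1qc, binds a target and activates the proteases C1r and C1s, which cut C4 and C2 so that C3 can be cut and attached. In brain, microglia are the main known source of C1q, and C1q and C3 are known for marking synapses for removal. Serping1 encodes the inhibitor of C1r and C1s, and Csmd1 encodes a very large membrane protein of CUB and sushi domains that has been described as an inhibitor of the classical pathway. Csmd2 and Csmd3 are its relatives in sequence, and are grouped with it here by family.

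The 9 genes described here are C1qa, C1qb and C1qc (initiators), C4b and C3 (central components), and Serping1, Csmd1, Csmd2 and Csmd3 (inhibitors and their family). They were found by symbol, 1 gene row each, among 55536 annotated genes, of which 22028 are protein-coding. Total RNA was measured in tissue labelled layer of hippocampus. It came from male B6CASTF1/J mice, hybrids of C57BL/6J and CAST/EiJ, at 18 to 20 months of age. There was 1 group of 2 libraries, replicate 1 and replicate 2, and no treated, mutant or younger group, so levels are compared between genes inside this tissue and from library to library. The labels list both under 1 donor record and do not give the number of animals, so the SDs measure the spread between these samples, which may be technical. No test of a condition was possible and no p-values are given.

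Replicate 1 held 34563482 expected counts on genes and replicate 2 held 32370292. Levels are in TPM, an abundance corrected for transcript length. The deposited tables hold 2 quantifications, an alignment-based one, used here unless stated, and a read-based one made from the reads directly. Markers of neurons, astrocytes, oligodendrocytes and microglia all reached 1 TPM in each library, with 6 of 6, 6 of 6, 6 of 6 and 8 of 8 genes. The libraries stood apart in choroid plexus markers, whose TPM summed to 36.5 in replicate 1 and 695 in replicate 2, of which Ttr made up 29.91 TPM in replicate 1 and 672 in replicate 2. Microglia markers summed to 128 TPM in replicate 1 and 141 TPM in replicate 2. In bulk tissue, fewer cells of a type and less RNA per cell cannot be told apart.

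Short stretches of coding sequence show what these genes encode and how closely related copies differ. The 3 C1q genes lie in 1 cluster of 18.7 kb on the minus strand of mouse chromosome 4 (build mm10), with C1qb at chr4:136880129-136886187, C1qc at chr4:136889804-136893065 and C1qa at chr4:136895917-136898803. Each encodes a collagen-like stretch, in which codons for glycine recur at a fixed spacing, ahead of a globular head. The stretches below, 63 bases each from the start of the longest unbroken run, are shown because they are the part of the chains that winds into the collagen-like stalk, and the glycine codons are in capitals. That of C1qa is in exon 3 at chr4:136896646-136896708, that of C1qb in exon 2 at chr4:136882155-136882217 and that of C1qc in exon 3 at chr4:136890520-136890582.
C1qa: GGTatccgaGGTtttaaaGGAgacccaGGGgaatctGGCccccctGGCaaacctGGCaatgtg
C1qb: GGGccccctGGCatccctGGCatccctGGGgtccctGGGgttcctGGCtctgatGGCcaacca
C1qc: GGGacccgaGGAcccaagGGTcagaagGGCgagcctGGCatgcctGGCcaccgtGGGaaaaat

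The unbroken run held 16 glycine-led triplets in C1qa, 29 in C1qb and 16 in C1qc. The coding sequences of the 3 genes were 63.3% identical between C1qa and C1qb, 65.3% between C1qa and C1qc and 64.1% between C1qb and C1qc. No window of 100 bases, the length of read that the table's effective lengths imply, was shared between any of them and another gene. Their counts were therefore not split with a copy.

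C3 (chr17:57203970-57228136, minus strand) and C4b (chr17:34728380-34743882, minus strand) encode the proteins that bind covalently to a target through an internal thioester. The stretches below, 51 bases from exon 24 of each, are shown for that site, and the capitals mark its 5 codons, the middle one of which is for glycine in C3 and for alanine in C4b. They lie at chr17:57215826-57215876 in C3 and chr17:34734463-34734513 in C4b.
C3: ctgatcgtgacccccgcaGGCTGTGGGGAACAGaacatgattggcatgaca
C4b: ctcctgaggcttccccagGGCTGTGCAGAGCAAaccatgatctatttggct

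The coding sequences of C4b and C3 were 62.7% identical over 4595 aligned bases, with no window of 100 bases in common. C4b has a much closer copy in C4a, the gene of the sex-limited protein, which is annotated as a processed transcript. It lies on the same strand (chr17:34809092-34823464), with a gap of 65.2 kb between the genes. The main C4b transcript and the longest C4a transcript were 96.1% identical over 5367 aligned bases. The 60 coding bases that differ most are shown as the stretch of that length where the copies are least alike, with the differing bases in capitals. They lie in exon 21 of each, at chr17:34735430-34735489 in C4b and chr17:34816086-34816145 in C4a.
C4b: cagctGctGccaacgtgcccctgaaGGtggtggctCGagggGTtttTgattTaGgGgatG
C4a: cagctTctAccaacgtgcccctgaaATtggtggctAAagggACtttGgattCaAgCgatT

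In that stretch 13 of 60 bases differed, and 207 did over all aligned bases. But the longest identical run was 433 bases, and 16.5% of the windows of 100 bases in the main C4b transcript occurred in C4a too. The split of those reads between C4b and C4a is the authors' estimate. The deposited posterior SD of the C4b count, the spread that this splitting leaves, was 7.78 of 2980 counts in replicate 1 and 6.77 of 2659 counts in replicate 2.

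Of the 9 members, 8 reached 1 TPM in each library, as did 57.5% of protein-coding genes. C3, the component on which the pathways converge, was the exception, with 0.98 TPM in replicate 1. The deposited posterior mean TPM of C3 was 1.51 in replicate 1 and 1.67 in replicate 2, above the minimum in both. Members' mean levels covered a range with C3 at the bottom and Csmd1 at the top, and their median was 16.54 TPM, beside 14.56 TPM over the protein-coding genes that reached the same minimum and 3.15 TPM over all protein-coding genes.

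**Figure D1:**
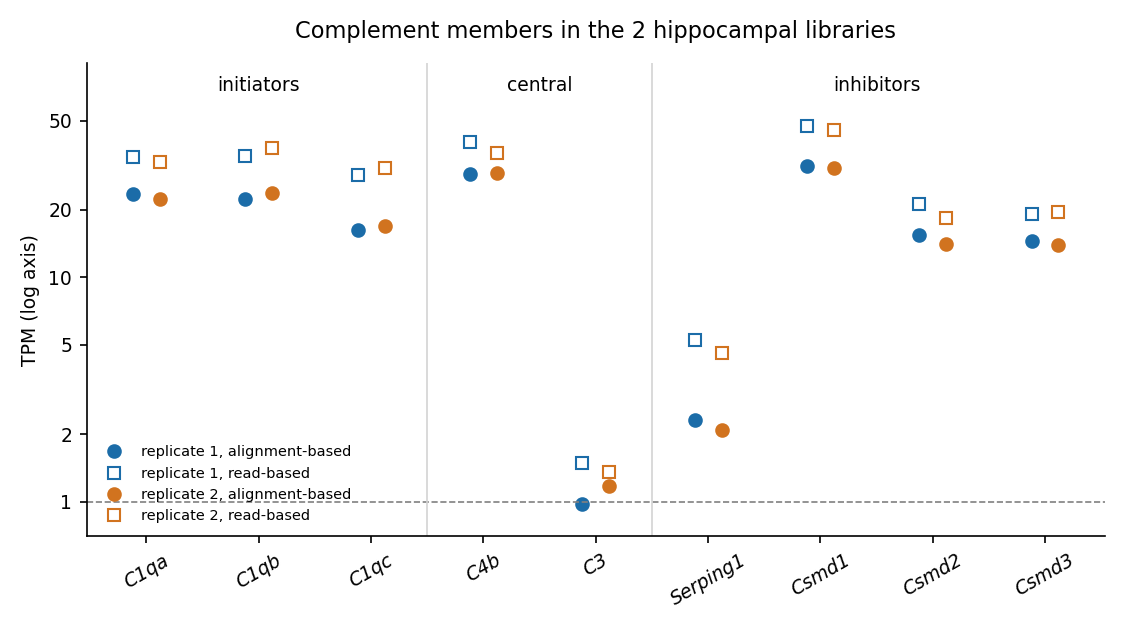
TPM (log axis) of the 9 members in replicate 1 (blue, left) and replicate 2 (orange, right); circles are the alignment-based and squares the read-based quantification, and the dashed line is 1 TPM. The circles of C1q, C4b and Csmd1 to Csmd3 lie between 13.98 and 31.2 TPM, those of Serping1 and C3 between 0.98 and 2.32 TPM.

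The initiators were present at similar levels. C1qa had 23.5 TPM in replicate 1 and 22.3 TPM in replicate 2. C1qb had 22.28 TPM in replicate 1 and 23.72 TPM in replicate 2. C1qc had 16.18 TPM in replicate 1 and 16.9 TPM in replicate 2. C1qa was the highest chain in replicate 1 and C1qb in replicate 2, while C1qc was the lowest in both.

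The ratio of C1qb over C1qa was 1.01 ± 0.0817 (SD, n = 2), with the order of the genes turned round between the libraries, so their levels were not separated. The read-based table gave C1qb over C1qa as 1.02 in replicate 1 and 1.16 in replicate 2. C1qb over C1qc was 1.39 ± 0.0188, and C1qa over C1qc was 1.39 ± 0.0940. The exact 95% intervals of counting error of C1qb over C1qc were 1.21 to 1.56 in replicate 1 and 1.23 to 1.60 in replicate 2, so that gap was larger than counting error in both. Of the summed C1q TPM, 36.7% came from C1qa, 36.8% from C1qb and 26.5% from C1qc.

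The proteases that act with C1q were at far lower levels. C1ra, the highest of the C1r and C1s genes, had 0.49 TPM in replicate 1 and 0.50 TPM in replicate 2. C1s1 had 0.33 TPM in replicate 1 and 0.40 TPM in replicate 2. C1qa over C1ra was 46.3 ± 2.38, and C1qa over C1s1 was 63.5 ± 10.9 (n = 2), the second being 170 ± 39.2 in the read-based table. C2, cut by C1s beside C4, had 1.21 TPM in replicate 1 and 0.39 TPM in replicate 2, on 23.9 and 12 counts, and so did not reach the minimum in both, though it did in the read-based table with 2.52 TPM in replicate 1 and 2.18 in replicate 2. All of the C1r and C1s genes were thus below each of the C1q genes in both libraries.

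As a measure beside the marker level of microglia, the mean TPM of the 3 C1q genes was 0.683 of that of Csf1r, a microglial receptor gene, in replicate 1 and 0.657 in replicate 2. All 8 microglia markers reached 1 TPM, between 3.71 and 47.82 TPM in replicate 1 and between 4.34 and 51.96 TPM in replicate 2. Perivascular macrophage markers summed to 2.93 TPM in replicate 1 and 2.66 TPM in replicate 2, and 0 of 4 genes reached 1 TPM in both. The part of cell makeup in the C1q levels was not tested.

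The central components lay at opposite ends. C4b had 28.79 TPM in replicate 1 and 29.28 TPM in replicate 2. C3 had 0.98 TPM in replicate 1 and 1.18 TPM in replicate 2, on 92 and 77 counts. C4b was above C3 in each library, with a ratio of 29.4 in replicate 1 and 24.8 in replicate 2, or 27.1 ± 3.23 (SD, n = 2). The counting intervals of that ratio were 23.9 to 36.6 in replicate 1 and 19.8 to 31.5 in replicate 2.

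C4b was also above its copy. C4a had 7.80 TPM in replicate 1 and 6.82 TPM in replicate 2, and C4b over C4a was 3.99 ± 0.426. Of the C4a level, 44.9% in replicate 1 and 61.0% in replicate 2 was C4a-210, a transcript of 354 bases, on 22.4 and 24.5 counts, but it was listed at 0 in both libraries in the read-based table. C4a-207, the longest C4a transcript, had 0.71 TPM in replicate 1 and 0.70 TPM in replicate 2. Its posterior SD was 49.65 of 93.38 counts in replicate 1 and 43.32 of 85.63 counts in replicate 2. The other long C4a transcripts, C4a-201, C4a-203 and C4a-205, had 0, 0.37 and 0.73 TPM in replicate 1. In replicate 2 they had 0, 0.88 and 0.28 TPM. The main C4b transcript, C4b-201, had 21.6 TPM in replicate 1 and 20.78 TPM in replicate 2. In the read-based table C4a-207 led, with 45.5% in replicate 1 and 44.8% in replicate 2, and C4b over C4a was 7.55 ± 0.703.

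The inhibitors and their family formed a low and a high set. Serping1, the inhibitor of C1r and C1s, had 2.32 TPM in replicate 1 and 2.08 TPM in replicate 2, on 89 and 74 counts. Its level was 0.106 ± 0.00930 of the mean C1q level, or 9.49-fold below it (n = 2). In counts not corrected for length this ratio was 0.162. Serping1 was above C3 in both libraries, 2.37-fold in replicate 1 and 1.76-fold in replicate 2.

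The CSMD genes were among the higher members. Csmd1 (chr8:15892537-17535586, minus strand) had 31.2 TPM in replicate 1 and 30.6 TPM in replicate 2. Csmd2 (chr4:127987857-128567656, plus strand) had 15.38 TPM in replicate 1 and 14.1 TPM in replicate 2. Csmd3 (chr15:47580637-48792063, minus strand) had 14.57 TPM in replicate 1 and 13.98 TPM in replicate 2. Csmd1 was above both relatives in both libraries, and Csmd2 and Csmd3 lay close together.

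Csmd1 over Csmd2 was 2.10 ± 0.10 and Csmd1 over Csmd3 was 2.17 ± 0.0336, while Csmd2 over Csmd3 was 1.03 ± 0.0332 with counting intervals that held 1 in both libraries. Csmd1 made up 51.6% of the summed CSMD level, Csmd2 24.6% and Csmd3 23.8%. Their coding sequences were 68.7% identical between Csmd1 and Csmd2, 67.2% between Csmd1 and Csmd3 and 64.6% between Csmd2 and Csmd3, and no window of 100 bases was shared between any of them and another gene. The 3 genes are very long, spanning 1643 kb for Csmd1, 579.8 kb for Csmd2 and 1211 kb for Csmd3. No gene annotated on the opposite strand inside them had a count in either library. A gene on the same strand inside Csmd1, 3110080E11Rik, had 140 counts in replicate 1 and 128 counts in replicate 2, beside 5819 and 5319 for Csmd1.

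Summed per library, the 3 CSMD genes had 61.15 TPM in replicate 1 and 58.68 TPM in replicate 2, and the 3 C1q genes had 61.96 TPM in replicate 1 and 62.92 TPM in replicate 2. The ratio of the CSMD sum over the C1q sum was 0.960 ± 0.0384 (SD, n = 2). That near-equality holds for gene totals. With transcripts annotated as protein-coding alone, the ratio was 0.428, and in counts not corrected for length it was 7.06.

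In descending order of mean TPM the members ran Csmd1, C4b, C1qb, C1qa, C1qc, Csmd2, Csmd3, Serping1, C3. Of the 8 neighbouring pairs, 4 were separated by more than counting error in both libraries. These were C4b over C1qb with a mean ratio of 1.26, C1qa over C1qc with 1.39, Csmd3 over Serping1 with 6.5 and Serping1 over C3 with 2.07. The pairs Csmd1 and C4b, C1qb and C1qa, C1qc and Csmd2, and Csmd2 and Csmd3 were not. By mean, the order was the same in the read-based quantification, but in replicate 2 there C1qb was above C4b and Csmd3 above Csmd2. Csmd3 over Serping1 was 3.93 and Serping1 over C3 was 3.46 in that quantification.

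The read-based table gave higher TPM for all 9 members. Its mean exceeded the alignment-based one by over 1.5-fold for 4 of 9 members, beside 76% of the protein-coding genes at 1 TPM or more, whose median ratio was 1.63. Serping1 moved most, to 5.24 TPM in replicate 1 and 4.62 TPM in replicate 2, a ratio of 2.24. C3 had 1.49 TPM in replicate 1 and 1.36 TPM in replicate 2 by that quantification, and so reached the minimum in both.

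The rest of the complement system was taken from 7 lists ordered by step of the cascade, holding 56 genes with the members among them. Of these, 23 reached 1 TPM in each library, and of the 47 genes other than the members, 15 did, beside 57.5% of protein-coding genes. The classical list had 5 of 10 detected, the lectin list 2 of 8, the list of the alternative pathway and C3 1 of 4, the terminal list 0 of 7, the receptors 5 of 11, the membrane regulators 7 of 10 and the soluble regulators 3 of 6. The 7 membrane regulators include Csmd1, Csmd2 and Csmd3, of which Csmd2 and Csmd3 are listed by family. The median level over all 56 genes was 0.563 TPM. Of the 56 genes, 28 reached 1 TPM in each library in the read-based table, the 5 more being C2, C3, C5ar1, Cd46 and Cd59b, named after their values were seen. The share of all protein-coding genes at 1 TPM was not computed in that table.

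**Figure D2:**
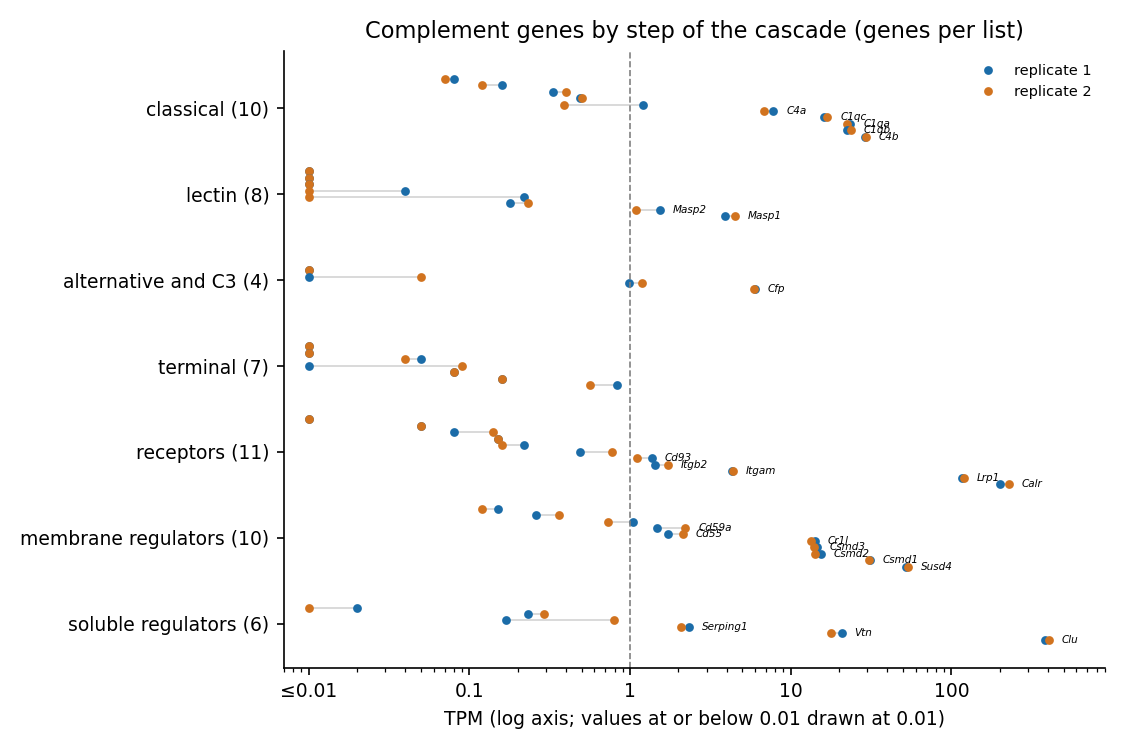
TPM (log axis) of each complement gene in replicate 1 (blue) and replicate 2 (orange), a grey line joining the libraries, by list with its number of genes; values at or below 0.01 are drawn at 0.01 and genes at 1 TPM or more in both libraries are named. No gene of the terminal list lies right of the dashed line at 1 TPM, while 7 of 10 membrane regulators do, beside 57.5% of protein-coding genes.

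Upstream of C3, the 2 detected genes of the lectin list encode proteases. Masp1 had 3.91 TPM in replicate 1 and 4.47 TPM in replicate 2, and Masp2 had 1.54 TPM in replicate 1 and 1.09 TPM in replicate 2. The lectin genes Mbl1, Mbl2 and Colec10 had 0 counts in both libraries, Colec11 had 6 in replicate 1 and 7 in replicate 2, and Fcna had 7 in replicate 1 and 0 in replicate 2. The alternative pathway had properdin, Cfp, which had 6.01 TPM in replicate 1 and 5.91 TPM in replicate 2. Factor B, Cfb, had 0 counts in replicate 1 and 2 in replicate 2, and factor D, Cfd, had 0 in both. On the scale of CPM, counts relative to library size, 0 counts left room for 0.0868 CPM in replicate 1 and 0.0927 CPM in replicate 2.

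Downstream of C3, C8g was the highest terminal gene, and had 0.83 TPM in replicate 1 and 0.56 TPM in replicate 2. Hc, the mouse gene of C5, had 0.16 TPM in each library, and C8a and C9 had 0 counts in both. The read-based table, however, gave C8a 0.234 TPM in replicate 1 and 0.128 TPM in replicate 2. That was a mean of 0.309 CPM, above the room that 0 counts left. The receptor genes for the activation fragments were low as well. C3ar1 had 0.15 TPM in each library, and C5ar1 had 0.49 TPM in replicate 1 and 0.77 TPM in replicate 2, while the read-based table gave it 1.28 and 1.24 TPM. The subunits of complement receptor 3 were detected, with Itgam at 4.33 and 4.34 TPM and Itgb2 at 1.43 and 1.72 TPM in replicate 1 and replicate 2. C1q-binding proteins with many other roles stood highest in that list, Calr at 199.66 and 228.23 TPM and Lrp1 at 115.84 and 120.15 TPM, and Cd93 had 1.37 and 1.10 TPM.

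Among the membrane regulators Csmd1 was second in level. Susd4, a sushi-domain regulator, had 52.02 TPM in replicate 1 and 53.81 TPM in replicate 2, and Susd4 over Csmd1 was 1.71 ± 0.0645. Cr1l, known in mouse as Crry and a regulator of C3 cleavage, had 14.12 TPM in replicate 1 and 13.34 TPM in replicate 2, close to Csmd2 and Csmd3. The remaining detected ones were low, Cd55 at 1.72 and 2.13 TPM and Cd59a at 1.47 and 2.21 TPM. Cd46 had 1.04 TPM in replicate 1 and 0.73 TPM in replicate 2 and did not reach the minimum in both, but had 1.65 and 1.32 TPM in the read-based table.

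Among the soluble regulators Serping1 was the lowest of the 3 detected. Clu, the secreted chaperone that also binds the terminal complex, had 384.47 TPM in replicate 1 and 406.24 TPM in replicate 2, and Clu over Serping1 was 181 ± 20.9. Vtn, vitronectin, had 20.79 TPM in replicate 1 and 17.8 TPM in replicate 2. Factor I, Cfi, the protease that cuts C3b and C4b, had 1 count in replicate 1 and 0 in replicate 2. C4bp had 0.17 TPM in replicate 1 and 0.79 TPM in replicate 2 and was the highest of those not detected.

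Genes related to the members by domain, and not part of the cascade, included several at higher levels. Of 4 sushi and CUB genes like the CSMD family, 3 were detected, and Sez6l2 was the highest, having 198.49 TPM in replicate 1 and 191.34 in replicate 2. Of 9 genes with a C1q domain outside complement, 7 were detected, led by C1qtnf4 at 82.07 and 82.81 TPM and C1ql3, a synaptic organizer, at 71.38 and 71.79 TPM. The neuronal pentraxins, relatives of the pentraxins that bind C1q, were all detected, led by Nptxr, which had 281.57 TPM in replicate 1 and 310.77 TPM in replicate 2.

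The members had 36 annotated transcripts, and 7 of the 9 genes had more than 1. The transcript with the highest mean share was the same in both quantifications for 7 of these 7 genes, beside 76.4% of detected protein-coding genes with several transcripts. It was the same in both libraries for 7 of 7 genes, beside 89.7%. Coding transcripts held under 50% of the gene's TPM for 2 members, Csmd1 and Csmd3, beside 10.2% of those genes, whose median coding share was 87.9%. In the read-based table that held for Csmd1 but not for Csmd3, whose coding share was 54.0% in replicate 1 and 52.6% in replicate 2.

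**Figure D3:**
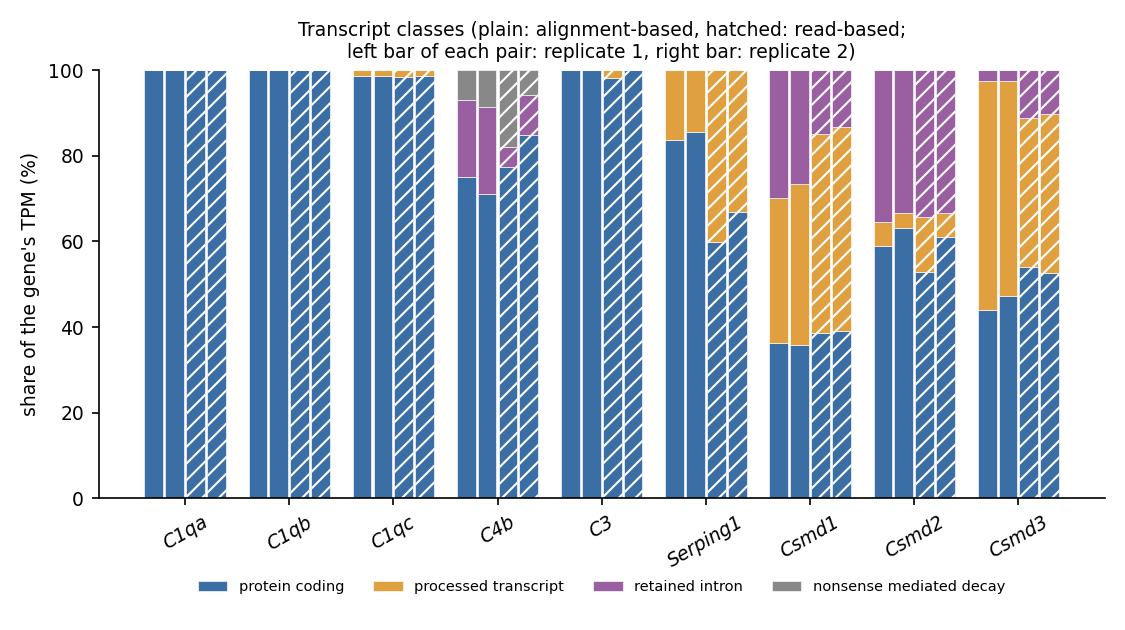
Share of each member's TPM (percent) by transcript class, with replicate 1 left and replicate 2 right in each pair, alignment-based in plain bars and read-based in hatched bars. Coding transcripts hold nearly all of the C1q and C3 levels and the smallest share in Csmd1, 36.2% in replicate 1 and 35.8% in replicate 2.

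C1qa and C1qb had 1 transcript each, and C1qc-201 held 98.7% of C1qc in both libraries. C4b-201, the coding transcript, held 75.03% of C4b in replicate 1 and 70.96% in replicate 2. C4b-203, of 749 bases with a retained intron, held 18.1% in replicate 1 and 20.4% in replicate 2, and C4b-202, annotated for nonsense-mediated decay, held 6.91% in replicate 1 and 8.60% in replicate 2. The read-based table gave 4.65% and 9.49% for C4b-203 and 17.9% and 5.67% for C4b-202, so their order turned in replicate 1. In counts, C4b-201 held 96.0% in replicate 1 and 95.2% in replicate 2, because TPM divides each count by a length and the other transcripts are short.

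C3 was coding throughout, but its level was divided between transcripts of very different length. C3-201, of 5136 bases, had 0.70 TPM in replicate 1 and 0.61 TPM in replicate 2. C3-203, of 554 bases, had 0.28 TPM in replicate 1 and 0.57 TPM in replicate 2, on 3.17 and 5.95 counts, and was listed at 0 in replicate 1 of the read-based table. With C3-201 alone C3 was lower in replicate 2, whereas its gene total was higher there. C3-204, a coding transcript of 315 bases, was listed at 0 in both libraries, but held 22.1% in replicate 1 of the read-based table, on 0.451 of a count. C4b-201 over C3-201 was 32.5.

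Serping1-201 held 83.8% of Serping1 in replicate 1 and 85.7% in replicate 2. The rest was Serping1-203, a processed transcript of 903 bases, and in the read-based table coding transcripts held 59.8% in replicate 1 and 66.9% in replicate 2.

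The CSMD genes were the members whose level was spread most widely. Csmd1-201, the coding transcript of 14182 bases, had 11.3 TPM in replicate 1 and 10.95 TPM in replicate 2. Csmd1-204, a processed transcript of 5776 bases, held 20.8% in replicate 1 and 23.2% in replicate 2, and Csmd1-207, with a retained intron, held 17.9% in replicate 1 and 14.4% in replicate 2. Both start where the coding transcript starts and end before its last exons. The processed transcript Csmd1-206, which ends earlier too, held 9.01% in replicate 1 and 10.96% in replicate 2. The read-based table gave 4.94% and 4.2% for Csmd1-207 and 17.9% and 19.0% for Csmd1-206, the reverse order. In counts, Csmd1-201 held 68.6% in replicate 1 and 66.9% in replicate 2. Of the windows of 100 bases in Csmd1-204, 4.84% occurred in no other transcript.

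Csmd2-205, the coding transcript of 13555 bases, held 41.0% of Csmd2 in replicate 1 and 45.1% in replicate 2. Csmd2-203 and Csmd2-201, both with a retained intron, held 23.1% and 12.3% in replicate 1, and 20.3% and 13.0% in replicate 2. Csmd2-206, a shorter coding transcript from the end of the gene, held 17.9% in replicate 1 and 18.1% in replicate 2, but 0 in both libraries in the read-based table. Of its windows of 100 bases, 2.88% occurred in no other transcript, and of those of Csmd2-203 2.90% did.

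Csmd3 was the member whose leading transcript was not coding, 1 of 7 beside 7.73% of the genes with several transcripts. Csmd3-205, a processed transcript of 1876 bases and 11 exons over the first 44.4% of the gene, held 53.6% in replicate 1 and 50.3% in replicate 2. The coding transcripts Csmd3-209 and Csmd3-204, which differ little, held 28.8% and 14.1% in replicate 1, and 21.2% each in replicate 2. In the read-based table of replicate 1, Csmd3-209 led with 40.5% and Csmd3-205 held 34.9%. In counts, coding transcripts held 84.7% of Csmd3 in replicate 1 and 86.1% in replicate 2.

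The last exon of Csmd3-205, 158 bases at chr15:48254342-48254499 on the minus strand, is the stretch that lies in no exon of Csmd3-209 or Csmd3-204. It is shown because it is 8.42% of the transcript and the part by which its reads can be told from theirs, and the capitals mark a repeat of CT, 27 units long.
Csmd3-205: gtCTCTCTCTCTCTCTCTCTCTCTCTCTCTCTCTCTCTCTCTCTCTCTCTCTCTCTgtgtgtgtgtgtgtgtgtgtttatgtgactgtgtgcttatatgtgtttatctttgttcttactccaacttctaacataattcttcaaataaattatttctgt

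The other 91.6% of its bases lay in exons of Csmd3-209, where the split of reads between the transcripts is the authors' estimate.

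**Figure D4:**
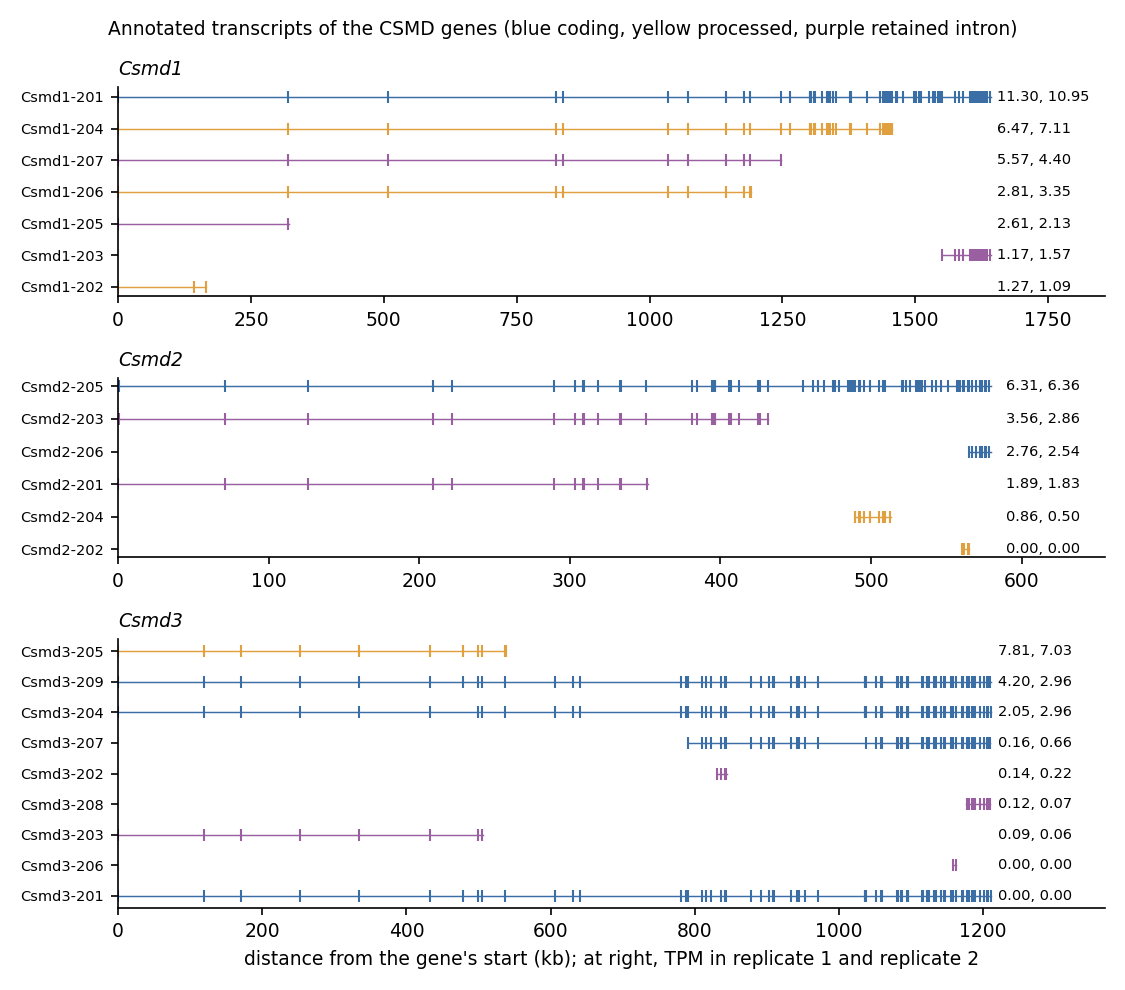
Exons (ticks) of the annotated transcripts of Csmd1, Csmd2 and Csmd3 by distance from the gene's start (kb), coloured by class, with TPM in replicate 1 and replicate 2 at the right. Transcripts that stop early take a large part of the alignment-based TPM, such as Csmd3-205 with 7.81 and 7.03 TPM. It held 14.5% and 13.3% of the gene's counts, and 34.9% and 37.1% of its read-based TPM.

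Between the libraries, no member differed by 1.5-fold or more. After scaling by TMM, 0 of 9 members did so, beside 2.26% of the 14887 genes that averaged 1 CPM or more. The log2 ratio of replicate 1 over replicate 2 was highest for Serping1, at 0.19, and C3, at 0.18, the 2 members with the fewest counts, and their counting intervals held 0 and reached past 1.5-fold, with upper ends of 0.66 and 0.64. The intervals of C4b, Csmd1 and Csmd2 lay above 0, and the other 4 held it. It was 0.12 for C1qa, -0.04 for C1qb, -0.02 for C1qc and 0.09 for C4b. For Csmd1, Csmd2 and Csmd3 it was 0.05, 0.10 and 0.07.

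The members' median was 0.09, with 7 of 9 higher in replicate 1, and the median over all genes was -0.00. In TPM, C4b and C3 were higher in replicate 2, opposite to the direction of their scaled counts. With scaling by the ERCC spike-ins the median over all genes was 0.18, 3.75% of genes passed 1.5-fold, and 9 of 9 members were higher in replicate 1, a direction that this shift of all genes fixes for C1qb and C1qc. Ttr, the choroid plexus gene, had a log2 ratio of -4.44 between the same libraries. The members' levels did not move with it by as much as 1.5-fold in either direction.

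**Figure D5:**
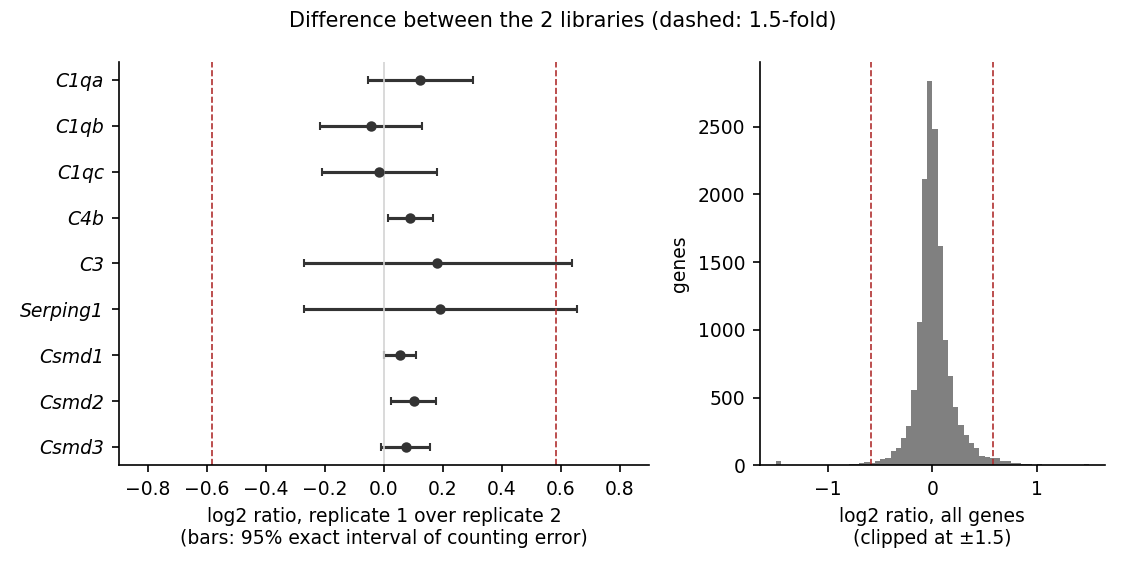
Left, log2 ratio of replicate 1 over replicate 2 for each member with its exact 95% interval of counting error; right, the same ratio over all genes that averaged 1 CPM or more, clipped at ±1.5. The members' points lie between -0.04 and 0.19, inside the dashed lines at 1.5-fold.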

How the data were processed

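Total RNA-seq was done on tissue labelled layer of hippocampus, in 1 group of 2 libraries, from 300 ng of RNA each, per the labels. Per the deposited notes, the assembly was mm10 and the annotation GENCODE M21, while aligner and counter were not named in what was used here. Per the file headers, the alignment-based gene and transcript tables give an expected count and TPM, and the read-based transcript table gives an estimated count and TPM, which was summed per gene. The authors also deposited the percent of a gene's TPM held by each transcript and, as a score, the posterior SD of each expected count. The use of strand in counting was not stated for these tables. Since mm10 is a C57BL/6J assembly, CAST/EiJ alleles may be aligned less completely.

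Levels are the deposited TPM, and a gene was called detected at 1 TPM or more in each library. The members and gene lists were chosen with earlier results of these data known, and some complement genes are not reported here. Rows of no gene took 0.418% and 0.479% of counts and were left out of library sizes. For the library ratio, expected counts were rounded and scaled by TMM (edgeR 4.0.16, R 4.3.3), with a prior count of 0.5, after a test on simulated data. Intervals are exact Clopper-Pearson intervals at 95%, and a count of 0 is read as up to 3 counts; these limits cover only counting error, as reads without molecular identifiers are not independent. Windows, exons and sequences came from the GENCODE M21 transcripts, aligned with Biopython 1.88. The genes named are all 9 members, the detected genes of each complement list with its highest gene otherwise, and transcripts with at least 10% of a member's TPM; other genes, and the transcripts of C4a and C3, were named after their values were seen. Alternatives were the read-based table, other minimum levels, rescaled TPM, posterior mean TPM, coding transcripts alone, counts, DESeq2 1.42.0 size factors, spike-in scaling and each library alone.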

Additional observations from a re-analysis of the deposited data

How the results depend on the processing

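The CSMD sum over the C1q sum, 0.960 in TPM over all transcripts, was 0.864 in the read-based table, 0.428 with coding transcripts alone and 0.338 with each gene's leading coding transcript alone, an alternative chosen after seeing the data; in counts it was 7.06, since the CSMD transcripts are far longer. C1qb over C1qc, 1.39, was 1.23 in the read-based table and 1.25 in counts. C4b over C3, 27.1, was 19.8 with coding transcripts alone, 33.5 in counts and 32.5 with the leading coding transcript alone. Serping1 over the C1q mean, 0.106, was 0.150 in the read-based table, 0.0897 with coding transcripts alone or the leading one alone, and 0.162 in counts. Apart from the missing length correction in counts, the causes of these shifts were not tested. Over each library alone the CSMD ratio was 0.933 to 0.987, C1qb over C1qa 0.948 to 1.06, C1qb over C1qc 1.38 to 1.40, C4b over C3 24.8 to 29.4 and Serping1 over C1q 0.0992 to 0.112. Members detected numbered 8 to 9 and complement genes 18 to 28 over all alternatives run. Levels were higher for 9 of 9 members in the read-based table and in TPM rescaled over nuclear protein-coding genes, and moved by more than 1 SD for 3 of 9 as posterior means. These 3 were C4b, C3 and Csmd1, and C3 moved from 1.08 to 1.59 TPM. C4b over C3 was not computed from posterior means. The leading transcript was shared by both quantifications for 9 of 9 members, the 2 with a lone transcript included, and for 8 to 9 in each library alone. The members past 1.5-fold between libraries stayed at 0 in all 4 alternatives. No paired analysis was possible because there was 1 group. With 2 libraries, differences between genes near their counting error, and levels of C3 and Serping1 on under 100 counts, are the least certain.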
